A study of Rattus norvegicus with 24 samples.

Results

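The genes described here encode the proteins of the cytosolic ribosome and were read out in the frontal cortex of 24 adult male Sprague-Dawley rats. Members were chosen by name, as every reference gene whose symbol is Rpl or Rps followed by a number and at most a short paralog suffix, together with Rplp0, Rplp1, Rplp2 and Rpsa. This gave 93 gene identifiers with 84 symbols, of 32883 reference genes in all, of which 56 belonged to the large and 37 to the small subunit. Kinases of the Rps6ka family, whose symbols begin alike, were left out.

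The rats were placed in an inhalation experiment with an aerosol of tungsten particles, and cortex was taken 24 h after exposure. Per the labels, 8 Control rats received 0 mg/m3, 8 Low rats 5 mg/m3 and 8 High rats 80 mg/m3, with no genetic change in any group. The sample titles carry the word Repeat, and the sources used here do not state how long exposure lasted. The extraction text of the labels speaks of cell lines, while the study describes animals, and each library is treated here as 1 rat. Libraries were made from polyadenylated RNA with a stranded kit and are called here by their library numbers, 49 to 56 for Control, 57 to 64 for Low and 65 to 72 for High.

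The ribosome of the cytosol is built of a large and a small subunit, each a scaffold of ribosomal RNA covered by proteins, most of which are needed in equal numbers. Their mRNAs are short, abundant and held together by a shared form of control, in which growth signals through mTOR act on a run of pyrimidines that begins at the first base of the message. Several of these genes also carry small nucleolar RNAs in their introns, which guide modification of ribosomal RNA. In brain, ribosomal proteins are made in cell bodies and are also translated in axons and dendrites.

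The pyrimidine run can be looked for in the reference sequence. Of the 84 symbols, 82 were in the RefSeq gene table of the rat (build GRCr8) and 64 had a promoter sequence. On the strand of the gene, a tract was counted where the annotated first base of the transcript was C and the next 4 bases or more were C or T. It was present in 21 of the 64 member symbols (32.8%), against 881 of all 33469 promoters (2.63%), 2 of 63 mitochondrial ribosomal protein genes (3.17%) and 0 of 37 translation factor genes. With the start moved by up to 3 bases either way, the shares were 34 of 64 (53.1%), 11.2% of all promoters, 17.5% and 10.8%. No match says only that these letters are not at this annotated start. The sequences below run from 10 bases before the start to 20 bases from it on, 5′ to 3′, with the tract in capitals. They belong to abundant members (Rplp1, Rps23 and Rpl35), to the anchor of the stalk (Rplp0), to members with a call or the smallest p (Rps3a and Rpl12), and to the X-linked Rps4x, whose name is shared by a called entry on chromosome 4. Rplp1 lies at chr8:71290853-71290882 on the minus strand, Rplp0 at chr12:46718371-46718400 on the minus strand, Rpl35 at chr3:43165902-43165931 on the minus strand, Rps3a at chr2:173827023-173827052 on the minus strand, Rps23 at chr2:23814507-23814536 on the plus strand, Rpl12 at chr3:36661930-36661959 on the plus strand, and Rps4x at chrX:71342902-71342931 on the minus strand.
Rplp1: cgcatgtgatCCTTTCCTCagctgccgcca
Rplp0: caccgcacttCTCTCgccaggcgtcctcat
Rpl35: cttcctctttCTCTCgaaccgggcggcctc
Rps3a: gtacttccgcCCTTTTggctctcagagcgg
Rps23: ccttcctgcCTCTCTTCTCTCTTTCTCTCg
Rpl12: aacatccgtCTTTTCggctttcggttcgga
Rps4x: cgcgcgcagCCTCCgaccctaatttcttcg

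In Rps23, Rpl12 and Rps4x the tract began 1 base before the annotated start. For Rpl35a, the RefSeq start was on another chromosome than the entry in the deposited tables, at chr11:81235002-81235031 on the minus strand, and held a tract at the first base. No tract by this rule was found at the starts of Rpl13a (chr1:104748894-104748923, minus strand), Rpl41 (chr7:1563478-1563507, minus strand) and Rpl21 (chr12:13386134-13386163, minus strand).
Rpl35a: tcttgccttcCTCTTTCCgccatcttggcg
Rpl13a: tcctttcctaggcggctgccgaagatggcg
Rpl41: ctcggaagtgacgacaccaagcacgccatt
Rpl21: ttccgccggggcagccatcttccaggttgg

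Expression is given as scaled coverage, which is the mean read depth per base of a gene divided by the sum of that depth over all reference genes of the library and multiplied by 1000000. It is a value per base, so levels of different genes can be set side by side. In units of 1000000, the unscaled sum was 1.64 to 3.07 over the 24 libraries. The tables hold no read counts, so counting error is unknown and the error given is the spread over rats. Genes of the mitochondrial genome took 21.8% to 33.8% of the coverage. Libraries 56 to 62, which are 1 Control and 6 Low rats, stood apart from the other 17 in the minus-strand tRNA genes of the mitochondrial genome, at 5449 to 8102 against 84.9 to 154.6. The Low tables list 0 loci assembled from the reads, while the Control and High tables list 46334 to 159573 each, so the kind of table and the Low group cannot be told apart. Among cell markers, Slc17a7 of excitatory neurons was at 301.7 or more in every rat and Mbp of myelin at 1131 or more. The 4 striatum markers summed to 136.6 to 915.0 over the 24 rats. Both endothelial markers found summed to 14.2 to 29.0 over the 24 rats, nearly all of it Flt1, while Cldn5 averaged at most 0.03 in any group. The 3 choroid plexus markers summed to 0.96 to 69.9, most of it Ttr, and Folr1 averaged at most 1.09.

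Ribosomal protein genes were among the abundant genes of the cortex, and their summed coverage was much the same in the 3 groups. The 93 members together took 2.28% ± 0.24 of the coverage in Control, 2.41% ± 0.27 in Low and 2.38% ± 0.28 in High (SD, n = 8 each). In Control the sum was 20010 in the lowest rat, 22100 at the median and 26897 in the highest. In Low these values were 21332, 23750 and 30202, and in High 20653, 23163 and 27163. The groups overlapped over nearly their whole range. The ratio of group means was 1.06 for Low over Control and 1.05 for High over Control, or 0.08 and 0.06 on the log2 scale. The SD between single rats of 1 group was 0.16 on that scale. That SD is not the error of a difference between group means, and the difference of the sums was not tested. In bulk tissue, fewer cells of a type and less RNA per cell cannot be told apart.

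**Figure D1:**
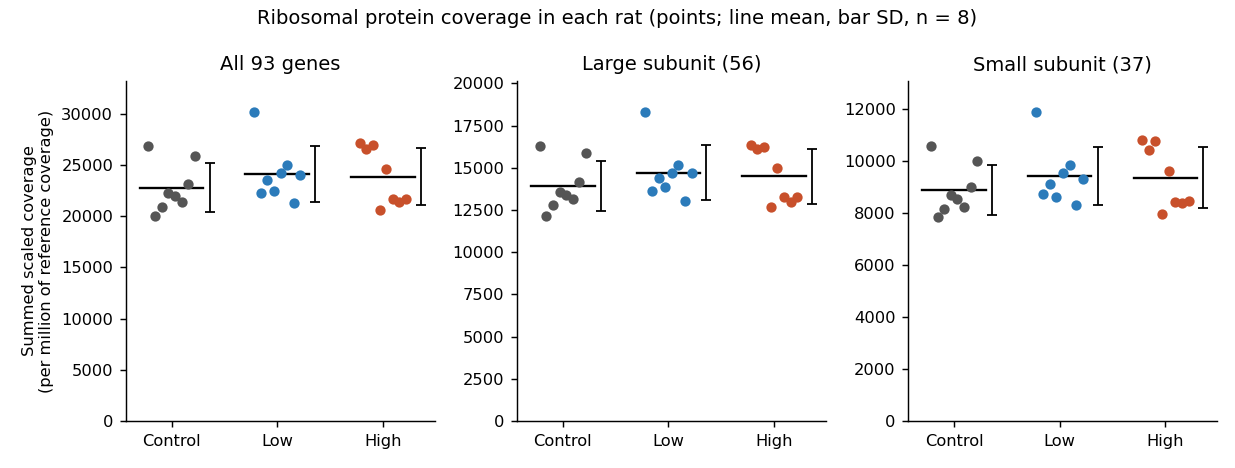
Summed scaled coverage (y axis, per 1000000 of reference coverage) of all 93 ribosomal protein genes, of the 56 of the large subunit and of the 37 of the small subunit, with 1 point per rat, a line at the mean and a bar for the SD of 8 rats beside each group. The groups overlap in each panel, and Low rat 57 is the highest of all at 30202.

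Both subunits moved in step. The large subunit summed to 13925 ± 1460 in Control, 14718 ± 1607 in Low and 14491 ± 1614 in High (SD, n = 8). The small subunit summed to 8885 ± 951, 9417 ± 1121 and 9358 ± 1178. Their ratio hardly varied, at 1.57 ± 0.02 in Control, 1.56 ± 0.03 in Low and 1.55 ± 0.03 in High, with a range of 1.51 to 1.61 over the 24 rats. So the spread of the sums came from both subunits together, rat by rat.

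The rats differed from each other far more than the groups did. In 7 rats, at least 80 of the 89 members that were abundant enough to test lay above the Control median of the gene, and these were 2 Control (49 and 56), 1 Low (57) and 4 High rats (65, 66, 67 and 69). In 4 rats at most 15 members did, namely Control rats 50, 51 and 54 and High rat 68. In the first 7 rats the share of all tested genes above their Control median was 24.6% to 56.4%, and in those 4 it was 16.4% to 55.9%. The median member of Low rat 57 stood 0.39 above the Control mean on the log2 scale, and that of Control rat 50 stood 0.17 below it. Some marker sums were also at the edge of their group in these rats. Astrocyte markers summed to 331.6 in Control rat 49 and 370.4 in Low rat 57, the lowest of both groups, and the choroid plexus markers of rat 49 summed to 69.9 against 1.49 to 23.4 in the other Control rats. Neuron markers summed to 961 in High rat 67, the lowest of all rats, and striatum markers to 915 in High rat 65, the highest. Others of the 7 rats went the other way. Astrocyte markers summed to 994.4 in Control rat 56, the highest of all rats. Striatum markers summed to 197.6 in Low rat 57, the lowest of the Low group. The part of these marker sums in the ribosomal protein values was not tested.

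Members varied less between rats of 1 group than the median gene did. The median coefficient of variation over the 8 Control rats was 11.8% for the 89 members and 16.9% for all 15644 genes tested. It was 12.1% against 15.5% in Low and 12.5% against 14.4% in High. These medians were not matched on level, and the members were far more abundant than most genes. In Control, Rpl4, a large subunit protein, varied least at 7.08%, and Rps10l1 most at 58.6%.

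Levels of single members spanned 4 powers of 10, down to the paralog Rpl30l1 at 0.08. Most ribosomal proteins are needed in equal number, though the stalk proteins of Rplp1 and Rplp2 are known to be present in more than 1 copy per ribosome. Of the 93 members, 69 lay at or above 100 as a mean over 24 rats, and all 69 of these lay below 1000. The median of the 89 tested members was 227.6, against 15.3 for all genes tested. The highest was Rplp1, an acidic stalk protein of the large subunit, at 859 ± 115 in Control, 923 ± 111 in Low and 920 ± 146 in High (SD, n = 8). Rpl21 on chromosome 12 followed at 841, 926 and 874, then Rpl41, the smallest ribosomal protein, at 757, 778 and 771. Rps23, which lines the decoding centre, stood at 655, 689 and 705, and Rpl35, near the exit of the peptide tunnel, at 605, 641 and 612. The ranges over rats of neighbours in this order overlapped, though all were read in the same rats. The 5 highest members held 16.3% of the members' sum.

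The other stalk proteins were lower than Rplp1. Rplp0, the anchor of the stalk, averaged 375 ± 43 in Control, 402 ± 29 in Low and 371 ± 42 in High. Rplp2, the partner of Rplp1 in the stalk, averaged 115 ± 17, 110 ± 16 and 119 ± 18. Rpsa, which is also known as the laminin receptor precursor, averaged 423 ± 41, 457 ± 46 and 437 ± 56. Each of these 4 genes overlapped between all 3 groups.

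**Figure D2:**
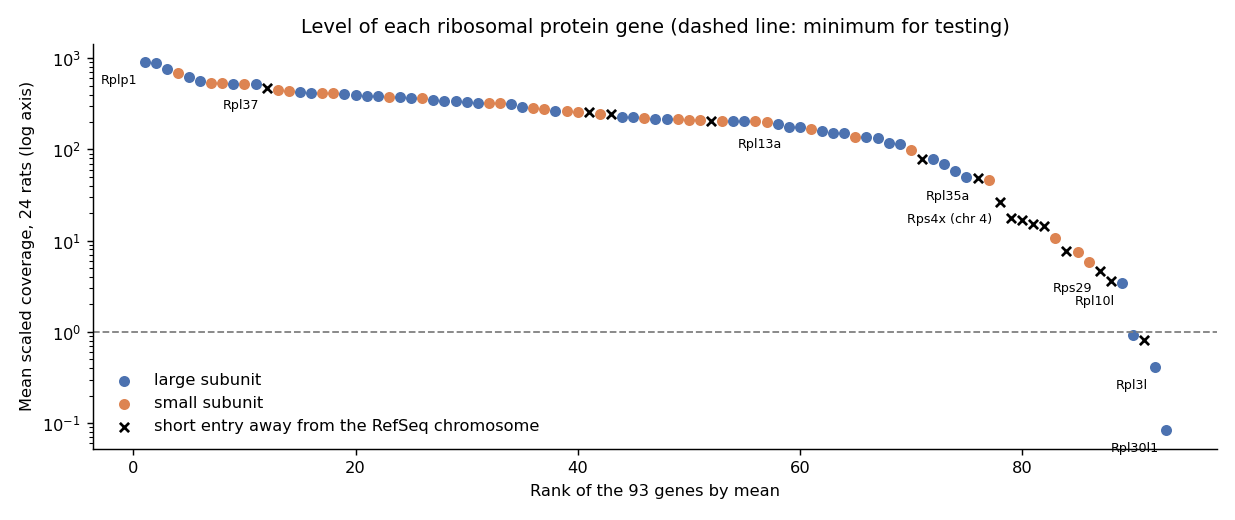
Mean scaled coverage over 24 rats (log axis) of the 93 members ranked from highest to lowest, by subunit, with crosses for short entries on another chromosome than RefSeq gives for the symbol. The dashed line at 1 is the minimum for testing, and 89 members lie above it; most crosses lie at the right, below 100.

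At the low end lay paralogs and short entries. Rpl10l, a paralog of Rpl10 known from testis, was at 3.47 ± 0.91 in Control, 3.55 ± 1.67 in Low and 3.15 ± 1.34 in High, and Rpl10 itself at 372, 403 and 385. Rpl3l, known from striated muscle, was at 0.41 as a mean over 24 rats, 369.6 times below Rpl3. Rpl39l averaged 0.93 and Rpl30l1 0.08, and with Rpl3l and an entry of Rpl21 on chromosome 3 at 0.81 they were the 4 members too low to test. Rps27l was at 10.9 in Control, 10.8 in Low and 10.2 in High, while Rps27 was at 383, 425 and 428. Rps4y2 was at 5.75, 5.90 and 5.84. Exceptions were Rpl22l1 at 78.0, 77.3 and 78.3, and Rpl7l1, at 58.0, 59.8 and 58.1, close to Rpl7 at 67.2, 73.4 and 68.9. Rpl36a was at 129, 140 and 136. No reference gene in the deposited tables carried the symbol Rpl22, Rps14 or Rps26. The members and the subunit sums therefore hold no entry under these names.

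The name of a member does not always point to the gene of that protein. For 15 members the table places the symbol on another chromosome than RefSeq does, over a span of less than 1000 bases, and these short entries were grouped after their values had been seen. They made up 5.99% of the members' coverage, with a median of 22.3 over the 14 tested, against 266.1 for the other 75 tested members. Some were as high as many other members, such as Rpl37 at 474.7 as a mean over 24 rats over 347 bases inside Vps53 on the opposite strand, Rps13 at 254.5 and Rpl21 on chromosome X at 242.4. Others were low, such as Rpl38 at 17.0 over 213 bases, Rpl39 at 14.5 over 324 bases inside Igfbp7 on the opposite strand, Rpl9 at 7.65 and Rps29 at 4.69 over 303 bases. Ribosomal protein genes are known for many near-identical copies, so how reads were divided between copies is uncertain for all of these.

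Copies with 1 name behaved in different ways. Of the 84 symbols, 7 had more than 1 identifier, 16 identifiers in all. The entries of Rpl7a on chromosome 3, which start at 4867233 and 5459160 and have the same span of 2424 bases, differed by at most 0.0165% in any rat. The entries of Rps19l2, a name that RefSeq gives as a synonym of Rps19, averaged 209.6 on chromosome 1 and 197.7 on chromosome 9. Rps27a averaged 411.9 on chromosome 14 and 206.9 on chromosome 5, and Rps10 285.5 on chromosome 20 and 78.8 on chromosome 6. The ratio of both Rps27a entries was 1.99 in Control, 2.06 in Low and 1.93 in High, and that of both Rps10 entries 3.61, 3.68 and 3.59. Rpl21 on chromosome 12 was 3.63 times as high as on chromosome X and averaged 3.57 on chromosome 13. Rpl32 averaged 371.4 on chromosome 4 and 17.8 on chromosome 6. Only for Rpl32 and Rps4x did this ratio between entries differ by more than 1.5 times between groups, among the names with a second entry at 1 or more. Rps4x on X over chromosome 4 was 7.64 in Control, 15.6 in Low and 8.16 in High, and Rpl32 on chromosome 4 over chromosome 6 was 19.9, 28.2 and 17.1. The Low ratio of Rpl32 includes rat 64, whose chromosome 6 entry was at 0, against 12.2 to 23.3 in the other Low rats.

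For Low against Control, the question was whether the lower aerosol concentration went with a shift of these genes. Of 89 members tested, 1 rose and 2 fell, by limma with a Benjamini-Hochberg adjusted p under 0.05 over 15644 genes. Among all genes tested, 1.23% were higher and 4.88% lower. The median log2 difference of the members was 0.08, and that of all genes 0.06. Of the 89 members 68 were above 0 (76.4%, against 66.5% of all genes), and 80 lay within 0.25 of 0. With libraries 56 to 62 as a covariate the members' median was -0.01, with 40 of 89 above 0 against 60.5% of all genes.

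**Figure D3:**
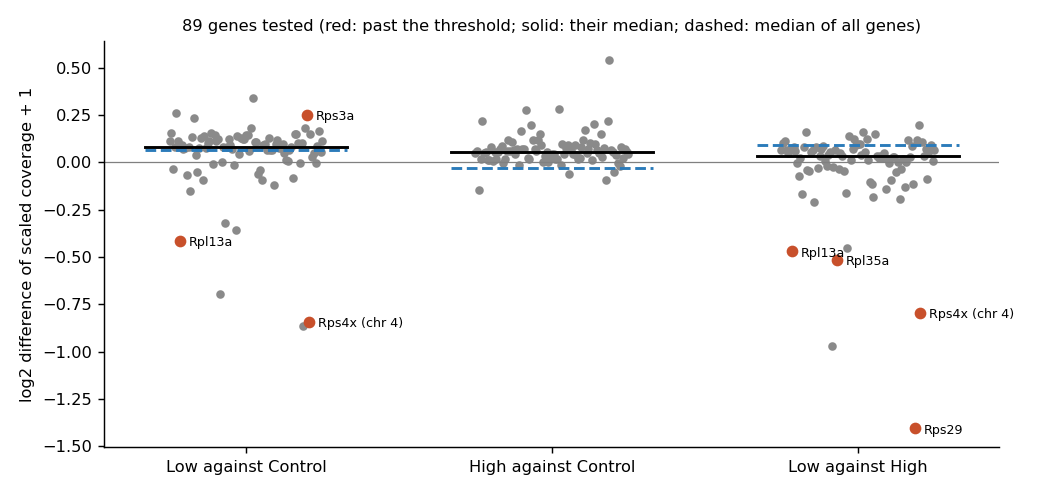
log2 difference of scaled coverage + 1 (y axis) of the 89 tested members in the 3 comparisons, with members past the threshold in red and named. The solid line is the median of the members and the dashed line the median of all 15644 genes; the members' medians are 0.08, 0.06 and 0.03, of which the first turns below 0 with libraries 56 to 62 as a covariate and the last also with median-of-ratios scaling or none.

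Rps3a, a small subunit protein at the exit of the mRNA channel, rose. Its scaled coverage was 299.9, 336.1 and 377.7 in the lowest, median and highest Control rat and 365.2, 395.2 and 501.9 in Low. 5 of the 8 Low rats lay above the highest Control rat, and the groups overlapped. The log2 difference was 0.25 (SE 0.07, adjusted p = 0.0229, limma). In High it ranged from 301.3 to 380.4, like Control. Without libraries 56 to 62 the difference was 0.23 with an adjusted p of 0.516 (limma). Of the Low group, that fit holds only rats 63 and 64, so it has little power. An exact Wilcoxon rank-sum test with 8 rats per group gave an adjusted p of 0.106, and the call was lost under both.

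Rpl13a, a large subunit protein known for a second role in silencing inflammatory mRNAs, fell. Its values were 156.1, 188.7 and 228.9 in Control (lowest, median, highest), 128.7, 141.5 and 180.3 in Low and 166.2, 195.6 and 233.4 in High. In Low, 7 of 8 rats lay below every Control rat, and rat 57 lay above 3 of them. The log2 difference was -0.41 (SE 0.09, adjusted p = 0.0038, limma). The 2 Low rats outside libraries 56 to 62 were at 128.8 and 145.3, also below Control, and without those libraries the log2 difference was -0.44 with an adjusted p of 0.185. In the FPKM column the difference was 0.49, where the median of all genes was 0.53.

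Rps4x on chromosome 4, a 972-base entry away from the X-linked gene, fell most clearly. Its values were 26.4, 31.6 and 36.1 in Control, 15.3, 17.1 and 21.1 in Low, and 25.5, 31.1 and 34.9 in High. The 8 Low rats lay below all 16 others. The log2 difference was -0.84 (SE 0.08, adjusted p = 4.75e-09, limma), and without libraries 56 to 62 it was -0.84 (adjusted p = 0.000195). Control library 56 was at 36.1 and Low libraries 63 and 64 at 16.8 and 17.2, so the values followed the Low group and with it the tables that list 0 assembled loci. The entry on X, which is the annotated gene, was at 245 ± 25 in Control, 272 ± 31 in Low and 252 ± 30 in High, with a log2 difference of 0.15 (adjusted p = 0.324, limma). With entries of 1 name summed, Rps4x was not called.

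**Figure D4:**
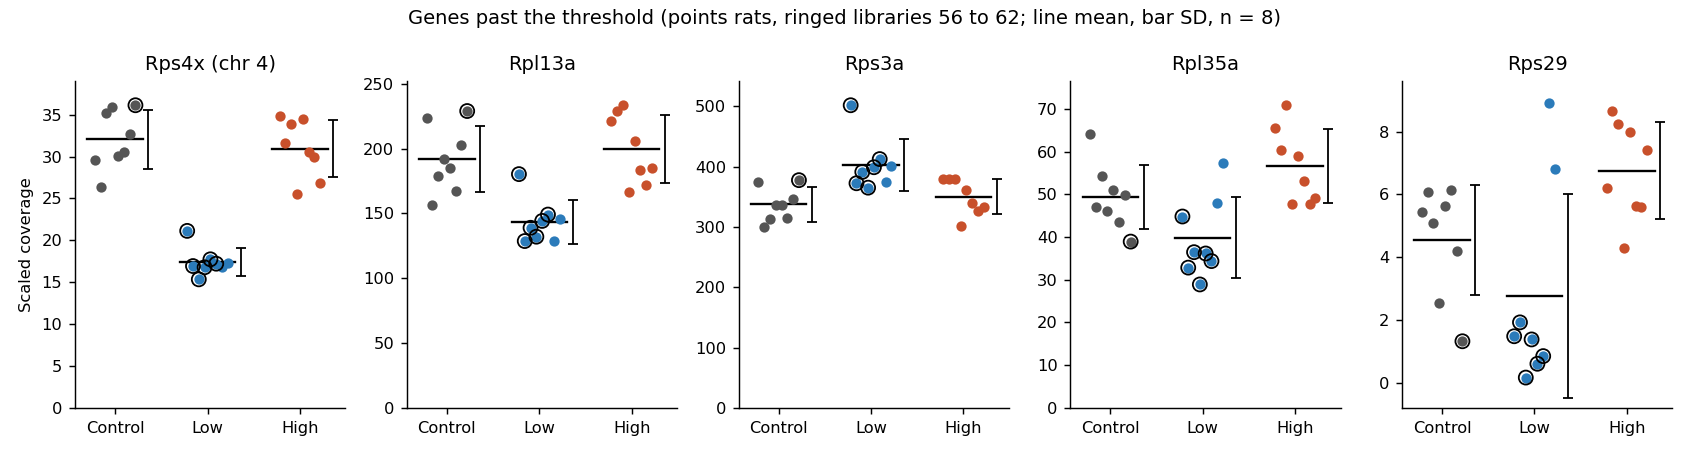
Scaled coverage (y axis) in each rat of the 5 members past the threshold in any comparison, with a line at the mean and a bar for the SD of 8 rats, and rings around libraries 56 to 62. Rps4x on chromosome 4 separates all 8 Low rats from the rest, while Rps29 is below 2 only in the ringed libraries.

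Rpl9, named here after its values were seen, did not pass limma's threshold for Low against Control (log2 difference 0.34, adjusted p = 0.0737), yet its 8 Low values of 7.33 to 9.62 lay above its 8 Control values of 4.30 to 7.22. In the exact Wilcoxon rank-sum test its adjusted p was 0.0102. The highest Control value and the lowest Low value were close, and the High values of 5.68 to 10.7 ran across both groups. The share of all genes that separate Low from Control in this way is not given here, so the separation is not shown to be particular to Rpl9. The entry is a short one on chromosome 1, while RefSeq places Rpl9 on chromosome 14.

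For High against Control, 0 of 89 members passed the threshold, and 0 of all genes did (0% called). At an unadjusted p under 0.05 there were 2 members and 330 genes, and the exact Wilcoxon rank-sum test also called 0. The median log2 difference of the members was 0.06, with 80 of 89 above 0 (89.9%), and that of all genes was -0.03, with 36.0% above 0. With median-of-ratios scaling, which centres all genes near 0, 85 of 89 members were above 0 (95.5%, against 51.7% of all genes) with a median of 0.09. Members share rats and scaling and are not replicates, so these counts carry no test. The members with the smallest p were Rpl12 of the stalk base, Rpl9 and Rps28. Rpl12 had 248.1, 281.5 and 353.9 in Control and 289.1, 324.0 and 395.1 in High (lowest, median, highest). Its log2 difference was 0.22 (SE 0.08, adjusted p = 0.999, limma). Rpl9 differed by 0.28 (SE 0.11) and Rps28 by 0.22 (SE 0.12), with the same adjusted p. All 3 overlapped between the groups.

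For Low against High, the 2 exposed groups were set against each other. Of 89 members, 0 were higher and 4 lower in Low, while 5.3% of all genes were higher and 6.39% lower. The median was 0.03 for the members and 0.09 for all genes, with 59 of 89 members above 0 (66.3%, against 69.9% of all genes). This direction turned with the scaling. With median-of-ratios scaling the members' median was -0.06, with 15 of 89 above 0 against 50.9% of all genes, and without scaling it was -0.18, with 0 of 91 above 0 against 22.3%. With libraries 56 to 62 as a covariate it was -0.08, with 12 of 89 above 0 against 62.5%. Rps4x on chromosome 4 was lower by 0.79 on the log2 scale (SE 0.08, adjusted p = 1.63e-08, limma). Rpl13a differed by -0.47 (SE 0.09, adjusted p = 0.000816, limma). These comparisons share the Low rats with the first one.

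The other members called here were Rps29 and Rpl35a, and neither was called without libraries 56 to 62. Rps29, a small zinc-binding protein of the small subunit whose symbol stands here for a 303-base entry on chromosome 13, was at 0.17, 1.43 and 8.90 in Low (lowest, median, highest) and at 4.30, 6.81 and 8.65 in High. Over libraries 56 to 62 it was 0.17 to 1.93, and over the other 17 it was 2.54 to 8.90, with Low rats 63 and 64 at 8.90 and 6.80. The log2 difference was -1.41 (SE 0.34, adjusted p = 0.0083, limma), and 0.21 (adjusted p = 0.712) without libraries 56 to 62. Rpl35a, here a 333-base entry on chromosome 5 inside Draxin on the opposite strand, was at 28.9, 36.3 and 57.4 in Low and 47.7, 56.1 and 70.8 in High. Low rats 57 to 62 had 28.9 to 44.8, and rats 63 and 64 had 48.0 and 57.4. Control rat 56 was at 38.9 and the other Control rats at 43.6 to 64.1, so for this gene libraries 56 to 62 and the other 17 overlapped. Its log2 difference was -0.51 (SE 0.12, adjusted p = 0.0060, limma), and -0.09 (adjusted p = 0.788) without libraries 56 to 62. The entry of Rpl32 on chromosome 6 was listed at 0 in Low rat 64. It was called when libraries 56 to 62 were left out or modelled. With only rat 64 left out, it was also called for Low against High (log2 difference -0.47, adjusted p = 0.0193, limma).

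Other reference genes lie inside the members. On the same strand, 29 of the 93 members held 64 such genes, of which 63 were 63 to 203 bases long and 34 had a symbol of a small nucleolar RNA. Small nucleolar RNAs are not messages, and a library of polyadenylated RNA is not made to capture them. What kind of RNA the genes without such a symbol give was not looked up. 1 of them, AC135443.1 in Rpl19, was far above the others, at 857 in Control, 901 in Low and 858 in High. The other 62 summed to 15.2 to 35.1 in libraries 56 to 62 and to 168.7 to 267.0 in the other 17. In Low rats 63 and 64 the sum was 199.4 and 202.3, and in Control rat 56 it was 35.1. So these genes were low in the same libraries as the minus-strand tRNA genes were high.

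**Figure D5:**
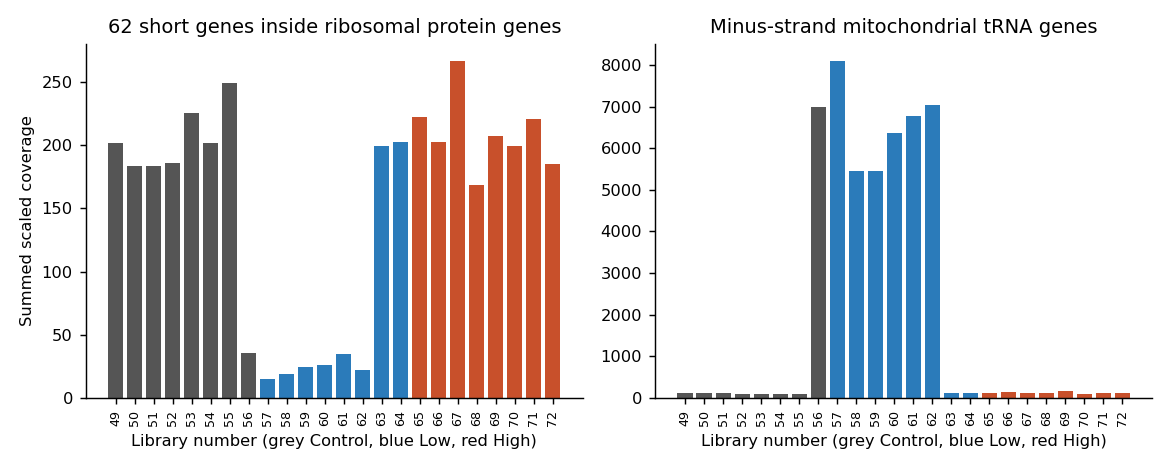
Summed scaled coverage (y axis) per library of the 62 short genes inside ribosomal protein genes (left) and of the minus-strand tRNA genes of the mitochondrial genome (right). Libraries 56 to 62 lie at 15.2 to 35.1 on the left, below the other 17, and at 5449 to 8102 on the right, above them.

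In the tests by group, 20 of the 49 short genes tested were lower in Low than in Control and 0 higher, with a median log2 difference of -1.10, where 4.88% of all genes were lower. Against High, 32 were lower and 0 higher, with a median of -1.25, where 6.39% of all genes were lower. Without libraries 56 to 62, 2 of 52 were lower in both comparisons, with medians of 0.04 and 0.03, where 2.13% and 2.14% of all genes were lower. For High against Control 0 were called and the median was 0.22, or 0.0048 without those libraries. SNORA70 in Rpl10 was at 10.2 in Control, 4.04 in Low and 11.6 in High, and SNORA62 in Rpsa at 9.66, 3.38 and 10.6. A second pattern was seen in Rpl13a, which holds 4 such genes. The SNORD33 entry that starts at 101122173 on chromosome 1 in the tables was at 0.0025 to 0.0249 in all 8 Low rats, rats 63 and 64 included, and at 1.02 to 9.48 in Control. A further SNORD33 entry in Rpl13a, which starts at 101121650, was at 0.0081 to 10.4 in Low.

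The hosts themselves showed little of this. Over the 29 members that hold a gene on their strand, the median log2 difference of Low against Control was 0.11, with 1 higher (Rps3a) and 1 lower (Rpl13a), and over the 60 tested members that hold none it was 0.08, with 0 higher and 1 lower. By subunit the medians were 0.09 over 52 large and 0.08 over 37 small subunit genes. Members with a pyrimidine tract within 3 bases of the RefSeq start on the same chromosome were more abundant, with a median level of 332.3 over 28 against 213.4 over the 29 tested without one. Rps27a, which has a RefSeq start with a tract and another without, was placed among those without one here and among those with one in the count of symbols. The class without a tract also holds low paralogs such as Rps4y2 and Rps27l. The median log2 differences with and without a tract were 0.10 and 0.06 for Low against Control, 0.06 and 0.04 for High against Control, and 0.04 and 0.04 for Low against High. The 14 short entries tested had medians of 0.01, 0.09 and -0.10 in these comparisons, and 3 of the 4 members lower in Low than in High were among them.

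Fau encodes a ribosomal protein of the small subunit fused to a ubiquitin-like protein, under another symbol. It was listed at 4.04 in Control, 3.56 in Low and 4.30 in High. The log2 difference of Low against Control was -0.16 (SE 0.10, adjusted p = 0.397, limma), and it did not pass the threshold in the other comparisons.

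Other genes of translation were read beside the members, where 1.23% of all genes were higher and 4.88% lower for Low against Control, and 5.3% higher and 6.39% lower for Low against High. Of 74 mitochondrial ribosomal protein genes tested, which build the separate ribosome of mitochondria, 0 were called for Low against Control and 2 were lower for Low against High, with medians of 0.04 and 0.03, which turned to -0.01 and -0.06 with median-of-ratios scaling. Of 40 translation factor genes, which start, extend and end the peptide chain, 0 were called for Low against Control, with a median of 0.12, and 9 were higher and 0 lower for Low against High, with a median of 0.15. Of the 40, 4 were higher with median-of-ratios scaling, where 2.37% of all genes were. Without scaling 0 were higher (median -0.06), where 108 of 17154 genes were. Without libraries 56 to 62, 0 were higher, where 0.12% of all genes were. With so few genes called in these last settings, 0 of 40 says little about the list. Eif5, which triggers hydrolysis of GTP at the start codon, was at 159 ± 13 in Control, 177 ± 10 in Low and 150 ± 11 in High (SD, n = 8), and the log2 difference of Low against High was 0.24 (adjusted p = 0.0067, limma). Of 43 ribosome biogenesis genes, 1 was higher and 2 lower in Low than in Control, with a median of 0.10. Without libraries 56 to 62 these counts were 0 and 1, where 0.06% of all genes were higher and 2.13% lower. For Low against High, 2 of the 43 were higher and 1 lower, with a median of 0.12. Without those libraries the latter counts were 0 and 1, where 0.12% of all genes were higher and 2.14% lower. Ncl, the nucleolar protein nucleolin, was at 244 ± 21 in Control and 279 ± 13 in Low, with a log2 difference of 0.20 (adjusted p = 0.0387, limma). Nhp2, a protein of the H/ACA small nucleolar particles, was at 18.3 to 27.1 in Control and 0 to 34.5 in Low. Of 11 translation control kinases and binding proteins, 0 were called in any of the 3 comparisons, with medians of 0.11, -0.07 and 0.14. High against Control had 0 calls in each of these lists.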

How the data were processed

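Frontal cortex RNA-Seq of 24 rats was analysed in the groups of the sample labels. The submitters' processing notes name FastQC, Trimmomatic, TopHat2 and StringTie, with the build mRatBN7.2 and no versions. Gene positions are given as the tables list them, and whether they are of that build is not settled. The authors deposited 1 table per rat with coverage per gene, a signal that is the mean read depth per base before any correction for library size. The FPKM values deposited beside it are corrected for length and for the sequenced total. The deposited TPM column sums to 1000000 in Low tables, and in Control and High tables it sums to more and was treated as a score of unknown scale. Coverage was summed per Gene ID, divided by the sum over reference genes times 1000000. Testing was limited to genes whose mean reached 1 and used limma 3.58.1 (R 4.3.3, with its trend and robust options), a pseudocount of 1 and log2 values, 1 model for the 24 rats, two-sided p-values with Benjamini-Hochberg adjustment over all 15644 genes and a threshold of 0.05. Fold differences are on that scale and are understated for low genes. The test was tried on simulated data with known answers. The members, the gene lists and the tests were chosen with earlier results of these data known. The lists of translation genes and cell markers come from general knowledge. Named genes are the 5 highest and 5 lowest tested members, Rplp0, Rplp1, Rplp2, Rpsa, members past the threshold (at most 6 per direction and comparison, or the 3 with the smallest adjusted p), paralog pairs, names with several identifiers, and Fau. A further gene under this rule is not reported here. Log2 differences are given as tests for those past the threshold or smallest in p and for Fau, and Rpl9, the X-linked Rps4x and the classes by position were added after values were seen. Alternatives were another pseudocount (0.1), no filter, a minimum of 5, no scaling, median-of-ratios scaling, scaling without mitochondrial or without ribosomal protein genes, the FPKM and TPM columns, fits of only 2 groups, rank-sum tests (Wilcoxon, exact, over 12870 assignments), libraries 56 to 62 as a covariate, and each rat left out. The lists of other genes were run under these settings after their values had been seen. Libraries 56 to 62 are set apart because of their measured values, not by any label. Sequences are from RefSeq (GRCr8). Python 3.11.15 was used with numpy, pandas, scipy and matplotlib.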

Additional observations from a re-analysis of the deposited data

Results flagged for a closer look

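A gap test for a sample far from the other 7 of its group (Dixon's test at 95%) was run on 162 groups of 8 rats, and chance flags about 1 in 20. It marked 18 values, most of them in Low rat 57. The sum of all members was 30202 in this rat against 21332 to 25044 in the other Low rats. The large subunit sum was 18312, the small subunit sum 11890, the sum of the short entries 1775, and the median member stood 0.39 above the Control mean on the log2 scale. Single members of rat 57 were Rpl21 on chromosome 12 at 1264, Rps27a on chromosome 14 at 558.4 and on chromosome 5 at 260.2, Rpl32 on chromosome 4 at 495.2, Rps3a at 501.9, Rps10 on chromosome 20 at 351.6, Rpl13a at 180.3, Rpl36a at 180.9, Rplp2 at 147.2, Rpl7 at 88.3 and Rps4x on chromosome 4 at 21.1. These values come from 1 library and are not separate observations. Without rat 57, Rps3a differed by 0.20 between Low and Control (adjusted p = 0.0457, limma).

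The entry of Rpl21 on chromosome 3 was at 1.47 in Control rat 49, against 0.19 to 0.77 in the other Control rats. The median of the short genes inside members was 0 in Control rat 56, against 2.94 to 4.62 in the other Control rats. The part of any technical difference in these values was not tested.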

How the results depend on the processing

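The number of members called for Low against Control was 1 of 91 without scaling, where 761 of all 17154 genes were called. It was 6 of 91 with scaling that left out mitochondrial genes (1759 of 16241 genes). In the FPKM column it was 83 of 89 (12393 of 13816 genes), and in the TPM column 34 of 89 (3952 of 15587 genes). For Low against High it was 2 in the exact Wilcoxon test, 80 of 89 in FPKM (12410 of 13816 genes) and 13 of 89 in TPM (3927 of 15587 genes). In these columns the median of all genes was itself shifted, by 0.53 and 0.17 for Low against Control and by 0.52 and 0.15 for Low against High. The members' medians in FPKM were 0.61 and 0.50, and the log2 ratios of summed coverage 0.64 and 0.53. Without scaling the median was 0.24 for High against Control (all genes 0.14) and -0.18 for Low against High (all genes -0.12), and the summed ratios were 0.25 and -0.20. The sign of Rpl13a reversed in FPKM, to 0.49 against Control and 0.41 against High, and in TPM against Control, to 0.080. Each of these values was still below the median of all genes in that column, so relative to other genes Rpl13a did not rise. With each rat left out, called members ranged from 2 to 5 for Low against Control (5 without rat 64), stayed at 0 for High against Control and ranged from 4 to 7 for Low against High (7 without rat 57). The medians then ranged from 0.04 to 0.12, 0.03 to 0.09 and -0.01 to 0.06, and the summed ratios from 0.03 to 0.12, 0.04 to 0.10 and -0.04 to 0.05. Rps4x on chromosome 4 stayed past the threshold in both comparisons under all 38 alternatives run on it. Rps3a lost it under 9 of 39, Control rats 50, 51 and 54 left out singly among them. Alternatives chosen after seeing the data left out libraries 56 to 62, left genes inside other genes out of the scaling, or summed entries of 1 name. Without libraries 56 to 62, Rps29 reversed to 0.21, and the medians were 0.03 for Low against Control and -0.06 for Low against High, while Rpl32 on chromosome 6, at 0 in rat 64, was called. With those libraries as a covariate, the medians were -0.01 and -0.08. With median-of-ratios scaling the members' median for Low against High was -0.06. The cause of these changes was not tested. The study names 1 sequencing depth for all libraries, and with no read count per gene in the tables the counting error of a value is unknown. No paired analysis was possible because the groups share no replicate numbers.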
